A study of Danio rerio with 6 samples.

Results

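The genes described here are the axon guidance ligands and receptors expressed in trunk tissue around a cut spinal cord in larval zebrafish. They were chosen by gene name (class 3 to class 7 semaphorins, plexins, neuropilins, Slits, Robo receptors, netrins, DCC and UNC5 receptors, ephrins and Eph receptors) and by a summed raw count of at least 30 over the 6 libraries. 95 of the 22350 genes in the count table met the rule, and all 95 genes whose names matched were above the count minimum. The lowest was ephb6, with 90 counts in all, and no matching gene lay below the minimum. One of the 95, unc50, matched through the first letters of its name. It is annotated as a homolog of unc-50 and is not a netrin receptor, so 94 guidance genes are described. 2 names, robo2 and plxnb2a, are each carried by 2 gene IDs.

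RNA was measured in wild-type larvae of the AB strain whose spinal cord had been cut through, 5 days post fertilization, at the height of the anal pore. After 6 h the larvae went into 35 µM IWR-1 in 0.25% DMSO or into 0.25% DMSO alone, and tissue was taken at 3 days post injury (8 days post fertilization). IWR-1 is a small molecule that stabilises Axin and so dampens Wnt/β-catenin signalling. Each group had 3 biological replicates, each pooled from 20 animals and holding about 1 mm of trunk, and every animal in both groups was injured, so the comparison is IWR-1 against vehicle in injured larvae.

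Guidance cues steer growing axons by attraction or repulsion at the growth cone, and the same families also act outside the nervous system, in blood vessels, migrating cells and epithelia. Netrins attract axons through DCC and repel them through UNC5 receptors. Slits repel axons that carry Robo receptors. Secreted class 3 semaphorins act through neuropilins paired with plexins, while most other semaphorins bind plexins directly. Ephrins are held on the cell surface and signal to Eph receptor tyrosine kinases on neighbouring cells.

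Libraries held between 11014963 and 15219664 counts. Counts were compared with edgeR's quasi-likelihood test, and a gene was called when its Benjamini-Hochberg adjusted p over all 19562 tested genes was below 0.05. Expression is given as CPM, counts relative to library size with TMM scaling, which can be compared between libraries for 1 gene, but not between genes, because it is not corrected for transcript length. DMSO replicate 2 stood apart: it was the lowest of the 6 libraries for 37.9% of the guidance members and 29.7% of all tested genes, and the highest for 14.7% of members and 28.8% of all tested genes. IWR-1 replicate 1 was the highest for 33.7% of members and 18.1% of all tested genes. Because the tissue is a mixture, fewer cells of a type and less RNA per cell cannot be told apart.

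With IWR-1, 6 of the 95 members fell and 0 rose. The members that fell were the netrin receptor gene unc5b, the netrin ligand gene ntn1a, the class 3 semaphorin genes sema3fa, sema3gb and sema3e, and the ephrin ligand gene efna5a. Of the members, 6.32% were called lower and 0% higher, against 3.59% and 3.88% of all tested genes, and the share called in either direction was 6.32% of members against 7.47% of all tested genes. The members were thus called about as often as genes in general. At an unadjusted p below 0.05, 15 members were lower and 5 higher (21.1% in all), against 12.5% and 11.6% of all tested genes (24.1% in all). The 15 include unc50, which is not a guidance gene. DESeq2 called 6 members lower and 0 higher, where it called 3.9% of genes lower and 4.11% higher.

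The median log2 fold change over the 95 members was -0.02, and that over all tested genes was -0.006. The middle 50% of members lay between -0.23 and 0.16. For 77 of the 95 members (81.1%) the 95% interval of the log2 fold change lay wholly within -1 to 1, that is under a 2-fold change either way, against 71.5% of all tested genes. IWR-1 libraries were all below the DMSO libraries for 14 members (14.7%, against 15.6% of all tested genes). They were all above the DMSO libraries for 6 members (6.32%, against 14.2% of all tested genes). With the replicate number as a block in the fit, 12 members were called lower (12.6%, against 8.86% of all tested genes) and 3 higher (3.16%, against 8.96%). Here too unc50 is among the 12 (edgeR adjusted p = 0.0156 with the block).

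The count of members that fell depended on single libraries. Leaving out IWR-1 replicate 1, 2 or 3 left 4, 2 and 2 members called lower, beside 2.13%, 1.38% and 0.957% of all tested genes. Leaving out DMSO replicate 1, 2 or 3 left 4, 9 and 8, beside 1.7%, 3.84% and 5.46%. Called higher were 1 member without IWR-1 replicate 1 (plxnc1; 3.67% of all tested genes) and 1 without DMSO replicate 3 (plxnd1; 5.22%). unc5b and sema3gb were called in each of these fits.

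**Figure D1:**
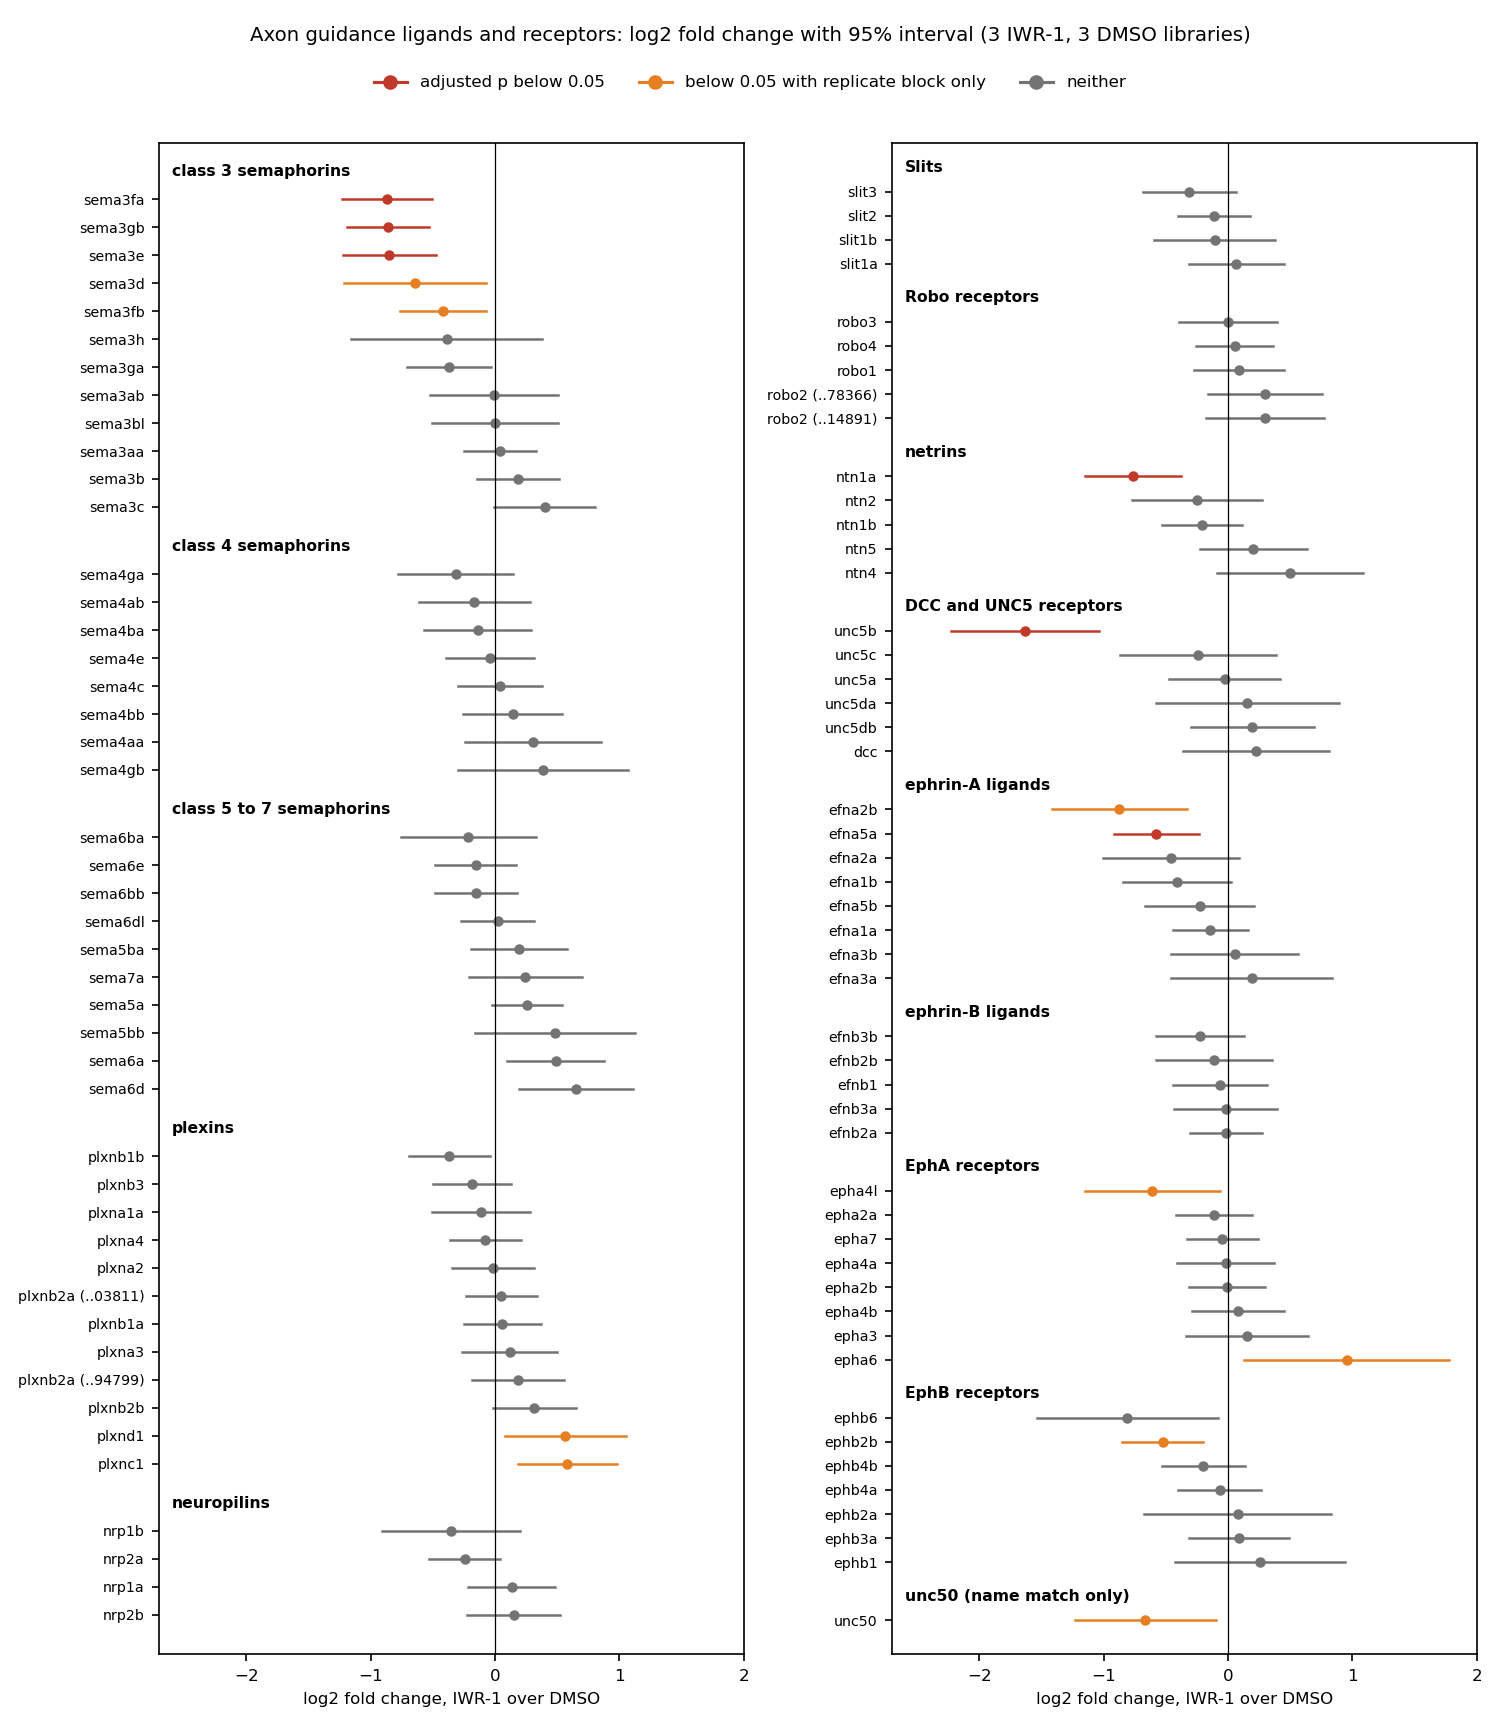
Log2 fold change (IWR-1 over DMSO) of all 95 members on the horizontal axis, grouped by family, with points for the edgeR estimate and lines for the 95% interval (red, called; orange, called with the replicate block only; grey, neither). The 6 members called at an adjusted p below 0.05 lie left of 0, unc5b farthest at -1.63, while plexins, neuropilins, Slits and Robo receptors scatter around 0.

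The netrin system held the largest fall. unc5b (ENSDARG00000033327; chromosome 13, 29127960 to 29227803, plus strand, GRCz11) encodes a transmembrane receptor that turns the netrin response to repulsion and that also acts in vessels. It was at 14.3, 13.1 and 18.3 CPM in the 3 IWR-1 libraries, against 36.6, 71.4 and 34.4 CPM in the 3 DMSO libraries. The groups did not overlap, and DMSO replicate 2 was far above the other two vehicle libraries. The mean was 15.3 ± 2.73 CPM with IWR-1 and 47.5 ± 20.8 CPM with DMSO (SD, n = 3 each), a log2 fold change of -1.63 ± 0.27 SE (edgeR adjusted p = 0.00526), or 3.1-fold lower. It was called under every alternative that was run. Without DMSO replicate 2 the log2 fold change was -1.21 (edgeR adjusted p = 0.000674), and across all alternatives it ran from -1.82 to -1.21.

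No other DCC or UNC5 gene was called. The other 5 had log2 fold changes between -0.24 (unc5c) and 0.22 (dcc). An annotated gene with 701 counts lies across unc5c on the opposite strand. dcc, the receptor of netrin attraction, was at 5.95, 3.46 and 7.43 CPM with IWR-1 and at 4.55, 4.62 and 5.28 CPM with DMSO, and the 95% interval of its log2 fold change was -0.36 to 0.81. unc5a differed by -0.03 (interval -0.47 to 0.42). Of all counts on DCC and UNC5 genes, unc5b took 33.1%, 34.0% and 41.4% in IWR-1 replicates 1, 2 and 3 (95% Wilson intervals 29.4 to 36.9%, 29.96 to 38.31% and 37.6 to 45.3%). In DMSO replicates 1, 2 and 3 it took 56.1%, 77.4% and 54.6% (52.6 to 59.4%, 74.7 to 79.9% and 51.4 to 57.8%). Such intervals cover counting error only. The share was lower in every IWR-1 library than in any DMSO library, whatever the scaling of the libraries. unc5b is shown because it was called, so its share describes that fall and adds no evidence to it.

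**Figure D2:**
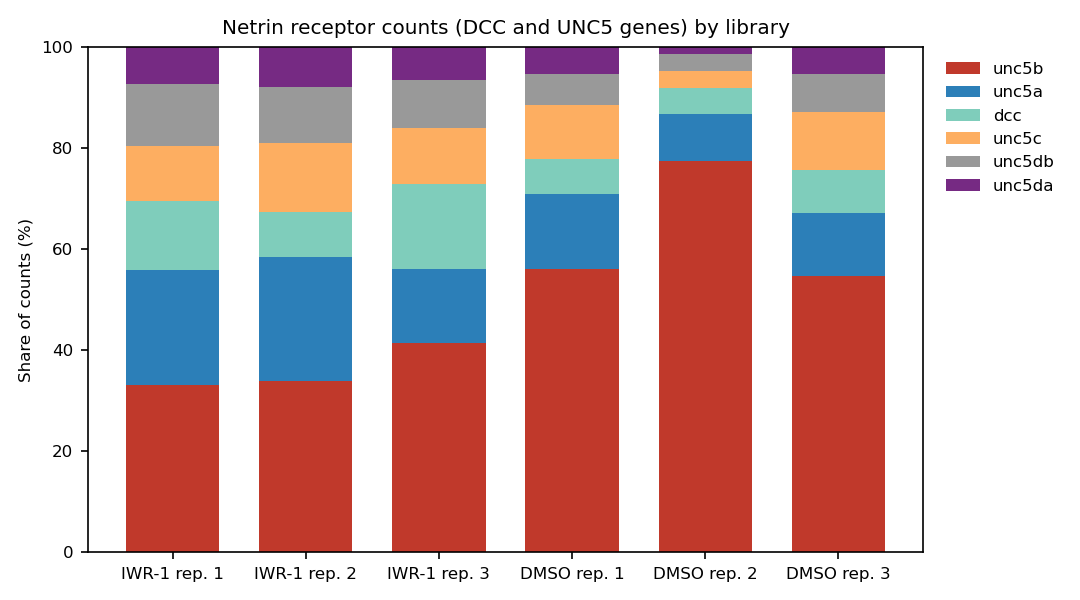
Share of the counts on the 6 DCC and UNC5 genes taken by each gene, in percent. Each library is one stacked bar, with IWR-1 libraries on the left and DMSO libraries on the right. unc5b (bottom segment) takes 33.1 to 41.4% in IWR-1 libraries and 54.6 to 77.4% in DMSO libraries.

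Among the ligands of these receptors, ntn1a (ENSDARG00000105112; chromosome 6, 19804048 to 19926657, minus strand), a secreted netrin known from the floor plate of the cord, was at 40.0, 39.1 and 34.5 CPM with IWR-1, against 67.6, 77.3 and 48.7 CPM with DMSO. All IWR-1 libraries lay below all DMSO libraries, and DMSO replicate 2 was again the highest. The means were 37.9 ± 2.98 CPM with IWR-1 and 64.5 ± 14.6 CPM with DMSO (SD, n = 3 each), with a log2 fold change of -0.77 ± 0.18 SE (edgeR adjusted p = 0.0245). The call was lost when IWR-1 replicate 1, 2 or 3 was left out (edgeR adjusted p = 0.0588, 0.0877 and 0.139), and likewise for DMSO replicate 1 (0.0953). It held without DMSO replicate 2, with a log2 fold change of -0.61 (edgeR adjusted p = 0.0229).

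Its duplicate ntn1b, on chromosome 3, had a log2 fold change of -0.21 ± 0.15 (edgeR adjusted p = 0.414; interval -0.53 to 0.11), at 57.0, 48.0 and 48.2 CPM with IWR-1 and 67.1, 51.7 and 58.1 CPM with DMSO. The ntn1b groups overlapped. Log2 ratios of ntn1a over ntn1b, formed within each library, averaged -0.43 ± 0.12 with IWR-1 and 0.11 ± 0.43 with DMSO (SD, n = 3 each), with no overlap. ntn2, ntn4 and ntn5 had log2 fold changes of -0.25, 0.50 and 0.20, and none of these was called. ntn1a made up 30.9 ± 1.82% of netrin counts with IWR-1 and 40.9 ± 7.92% with DMSO (SD, n = 3 each).

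**Figure D3:**
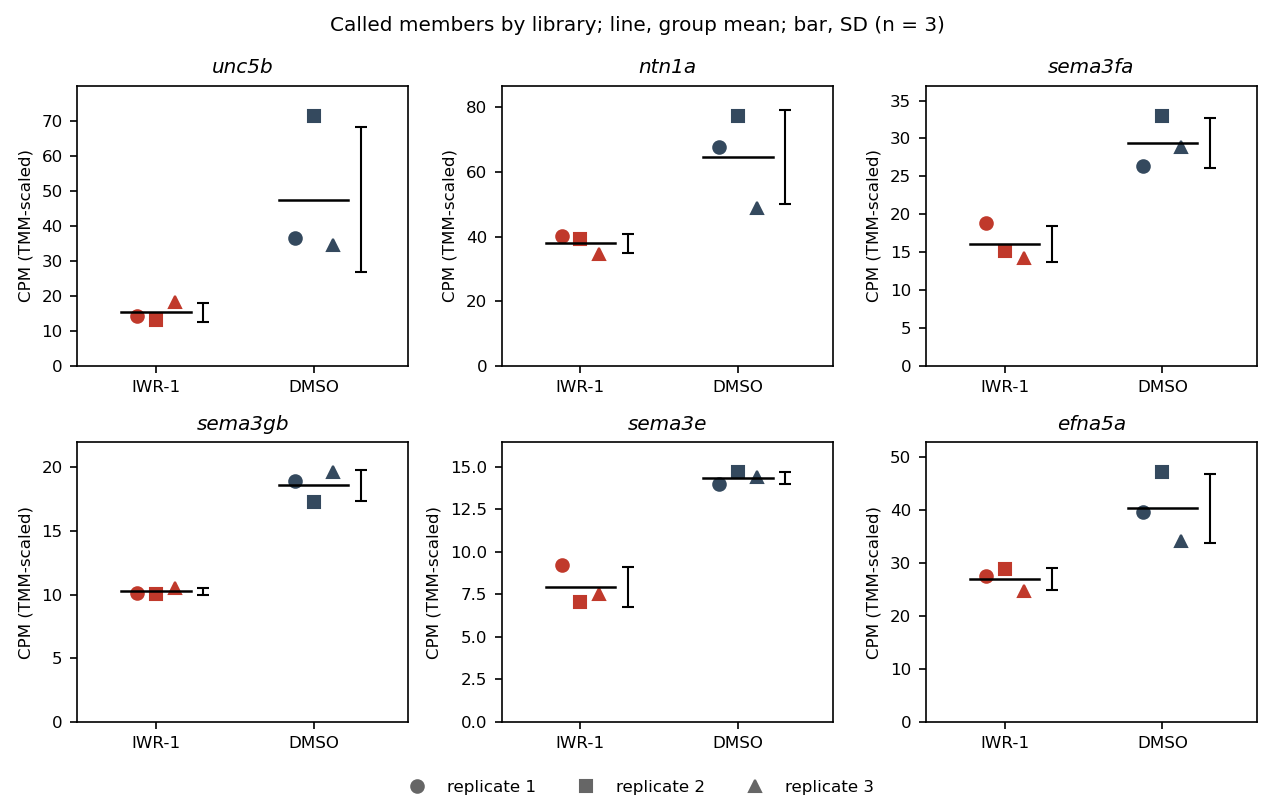
TMM-scaled CPM of the 6 called members in each library, IWR-1 on the left and DMSO on the right of each panel, with marker shape for the replicate number, a line at the group mean and a bar for the SD (n = 3). In all 6 panels the IWR-1 libraries lie below the DMSO libraries, and DMSO replicate 2 is the highest library in 5 of them.

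The class 3 semaphorins, secreted cues that are mostly repulsive, held 3 of the 6 falls. sema3fa (ENSDARG00000011163; chromosome 6, 42818963 to 42916343, plus strand), whose mouse counterpart signals through neuropilin-2, was at 18.8, 15.2 and 14.2 CPM with IWR-1, against 26.4, 33.0 and 28.9 CPM with DMSO. The groups were well apart. Means were 16.1 ± 2.41 CPM with IWR-1 and 29.4 ± 3.33 CPM with DMSO (SD, n = 3 each), -0.87 ± 0.16 SE as a log2 fold change (edgeR adjusted p = 0.0104). The call was lost when IWR-1 replicate 2 (edgeR adjusted p = 0.0600) or replicate 3 of that group (0.0757) was left out.

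sema3gb (ENSDARG00000013607; chromosome 8, 23485079 to 23553859, plus strand) was the steadiest of the called members: 10.1, 10.1 and 10.6 CPM with IWR-1, against 18.9, 17.2 and 19.6 CPM with DMSO. Replicates within each group differed little beside the gap between the groups. The log2 fold change was -0.86 ± 0.15 SE, from means of 10.2 ± 0.27 CPM with IWR-1 and 18.6 ± 1.22 CPM with DMSO (SD, n = 3 each; edgeR adjusted p = 0.00726). It was called under every alternative, with an adjusted p of at most 0.0480 and log2 fold changes from -0.91 to -0.82. Semaphorin 3G is, in the mouse, another ligand of neuropilin-2.

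sema3e (ENSDARG00000036571; chromosome 18, 9493720 to 9576778, plus strand), whose mouse counterpart binds plexin D1 without a neuropilin, was at 9.252, 7.071 and 7.504 CPM with IWR-1, against 14.0, 14.7 and 14.4 CPM with DMSO. The vehicle libraries were almost level and all IWR-1 libraries lay below them. The means were 7.94 ± 1.16 CPM with IWR-1 and 14.4 ± 0.36 CPM with DMSO (SD, n = 3 each), -0.85 ± 0.17 SE as a log2 fold change (edgeR adjusted p = 0.0134). Like that of sema3fa, its call was lost when IWR-1 replicate 2 (edgeR adjusted p = 0.0813) or replicate 3 (0.0931) was left out.

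sema3e stands in a run of 3 class 3 genes, sema3d, sema3ab and sema3e, all on the plus strand of chromosome 18 and within 405 kb. sema3d was at 11.6, 6.91 and 8.64 CPM with IWR-1 and 17.8, 9.23 and 15.3 CPM with DMSO, overlapping only through DMSO replicate 2. Its log2 fold change was -0.64 ± 0.26 (edgeR adjusted p = 0.162), and it was called with the replicate block (edgeR adjusted p = 0.0147) and without DMSO replicate 2 (log2 fold change -0.86, edgeR adjusted p = 0.0192). Between them, sema3ab had a log2 fold change of -0.01 ± 0.23 (edgeR adjusted p = 0.985; interval -0.52 to 0.50), and its sign changed under several alternatives. sema3aa, its duplicate and like it a counterpart of the collapsin gene SEMA3A, differed by 0.04 ± 0.13, at 47.0, 40.7 and 45.8 CPM with IWR-1 and 45.6, 41.0 and 43.2 CPM with DMSO.

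The remaining class 3 genes ran from sema3fb (log2 fold change -0.42) to sema3c (0.40). sema3fb, the duplicate of sema3fa, was at 37.7, 32.5 and 27.0 CPM with IWR-1 and 44.9, 38.9 and 46.3 CPM with DMSO, without overlap, and was called with the replicate block (edgeR adjusted p = 0.0455) but not without it (0.132). sema3ga, the duplicate of sema3gb, had a log2 fold change of -0.37 ± 0.15 (edgeR adjusted p = 0.171). Of the 12 class 3 genes, 8 had a log2 fold change below 0, and the median over the 12 was -0.38. With the replicate block 5 of them were called lower, where that fit called 8.86% of all tested genes lower. Together sema3fa, sema3gb and sema3e took 14.7%, 14.8% and 13.8% of class 3 counts in IWR-1 replicates 1, 2 and 3 (95% Wilson intervals 13.6 to 15.9%, 13.6 to 16.2% and 12.64 to 14.99%). In DMSO replicates 1, 2 and 3 they took 20.1%, 26.1% and 21.7% (18.8 to 21.4%, 24.5 to 27.8% and 20.5 to 22.9%). Those 3 genes too were chosen because they were called.

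Among the receptors of the class 3 semaphorins none was called. Of all 16 plexin and neuropilin genes 0 were called by edgeR or DESeq2. At an unadjusted p below 0.05, 2 were higher and 1 lower, against 11.6% and 12.5% of all tested genes. These 16 also take in the plexin B genes and plxnc1, receptors of other semaphorin classes. nrp2a, a co-receptor gene, was at 68.4, 67.0 and 63.7 CPM with IWR-1 and 81.4, 83.6 and 71.0 CPM with DMSO, a log2 fold change of -0.25 ± 0.13 (edgeR adjusted p = 0.276; interval -0.53 to 0.04). The groups did not overlap. nrp2b, nrp1a and nrp1b had log2 fold changes of 0.15, 0.13 and -0.35. nrp1b was called without DMSO replicate 2 (log2 fold change -0.61, edgeR adjusted p = 0.0323).

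The plexin A genes, signalling partners of neuropilins, lay close to 0, with log2 fold changes of -0.11 for plxna1a, -0.02 for plxna2, 0.12 for plxna3 and -0.08 for plxna4. plxnc1, whose human counterpart is the receptor of semaphorin 7A, was at 25.4, 41.2 and 34.1 CPM with IWR-1, against 21.3, 22.2 and 23.7 CPM with DMSO. Every IWR-1 library was above every DMSO library. Its log2 fold change was 0.58 ± 0.18 (edgeR adjusted p = 0.0782), and 0.0154 was the adjusted p with the replicate block. plxnd1, an endothelial receptor gene, was at 21.5, 18.9 and 27.0 CPM with IWR-1 and 14.4, 11.1 and 19.9 CPM with DMSO, overlapping by 1 library. Its log2 fold change was 0.56 ± 0.22 (edgeR adjusted p = 0.1501; 0.0114 with the replicate block). The annotated plxnd1 gene spans only 1241 bases, and its counts come from that span.

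In the plexin B genes, receptors of class 4 semaphorins, log2 fold changes ran from -0.37 (plxnb1b) to 0.32 (plxnb2b). plxnb2a is carried by 2 IDs that overlap on the same strand of chromosome 4, so reads between them may be split. Their log2 fold changes were 0.05 (ENSDARG00000003811) and 0.18 (ENSDARG00000094799).

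Of the 18 class 4 to class 7 semaphorins, membrane-bound for the most part, 0 were called by edgeR or DESeq2 or with the replicate block. Of all tested genes, edgeR called 7.47%, and with the block 8.96% were called higher and 8.86% lower. At an unadjusted p below 0.05, 2 of the 18 were higher and 0 lower, against 11.6% and 12.5% of all tested genes. sema6d was at 5.74, 5.19 and 4.53 CPM with IWR-1, against 3.36, 3.01 and 3.43 CPM with DMSO, without overlap (log2 fold change 0.65 ± 0.21, edgeR adjusted p = 0.0855). sema6a, also a transmembrane ligand of A-type plexins in the mouse, had a log2 fold change of 0.49 ± 0.18 (edgeR adjusted p = 0.126). At the other end, sema4ga had a log2 fold change of -0.32 ± 0.21 (edgeR adjusted p = 0.381). For sema6e the 95% interval was -0.48 to 0.17, and for sema4ab -0.61 to 0.28. Other annotated genes, with 780 counts, overlap sema6e on the same strand, so reads may be split between them.

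The Slit and Robo genes, the midline repellents and their receptors, gave no call. Of 9 genes 0 were called by edgeR, DESeq2 or with the replicate block, and in none were the groups apart. Of all tested genes, edgeR called 7.47%, and with the block 8.96% were called higher and 8.86% lower. The groups were apart for 14.2% of all tested genes with IWR-1 higher and 15.6% with IWR-1 lower. At an unadjusted p below 0.05, 0 of the 9 genes passed, against 24.1% of all tested genes. Whether 9 genes differ from these shares was not tested. slit3 was at 167, 125 and 113 CPM with IWR-1 and 189, 157 and 157 CPM with DMSO, a log2 fold change of -0.31 ± 0.17 (edgeR adjusted p = 0.292). slit2 and slit1b differed by -0.11 each and slit1a by 0.07. The 95% intervals of the 9 genes together reached from -0.69 to 0.77, so a 2-fold difference lay outside each of them.

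robo1, a receptor of Slits, was at 47.8, 47.8 and 52.9 CPM with IWR-1 and 50.0, 36.0 and 53.5 CPM with DMSO. robo3, which tunes Slit responses of commissural axons, had a log2 fold change of -0.0026 ± 0.18, and robo4, an endothelial member, 0.05 ± 0.14. The 2 IDs named robo2, on one strand of chromosome 15 and 204520 bases apart, both had a log2 fold change of 0.30 (rounded; ENSDARG00000014891 and ENSDARG00000078366). For ENSDARG00000014891, DMSO replicate 2 was the lowest library at 19.4 CPM, against 33.7 to 36.4 CPM in the other vehicle libraries.

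Among the ephrins, efna5a (ENSDARG00000089790; chromosome 21, 20488662 to 20636817, plus strand), a lipid-anchored repellent that binds EphA receptors, was at 27.6, 28.8 and 24.8 CPM with IWR-1, against 39.7, 47.2 and 34.3 CPM with DMSO. The groups did not overlap. The means were 27.1 ± 2.08 CPM with IWR-1 and 40.4 ± 6.49 CPM with DMSO (SD, n = 3 each), -0.57 ± 0.15 SE as a log2 fold change (edgeR adjusted p = 0.0471). This call was at the threshold: it was lost with RLE scaling (edgeR adjusted p = 0.0530), with upper-quartile scaling (0.0508) and without any 1 library other than DMSO replicate 3 (0.0643 to 0.226).

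Its duplicate efna5b differed by -0.23 ± 0.20 (edgeR adjusted p = 0.519). efna2b was at 2.73, 2.04 and 1.84 CPM with IWR-1 and 4.31, 3.49 and 4.29 CPM with DMSO, and its log2 fold change of -0.87 ± 0.25 did not pass (edgeR adjusted p = 0.0570; 0.0213 with the replicate block). Another annotated gene, with 451 counts, overlaps efna2b on the same strand, so reads may be split between them. Of the 8 ephrin-A genes 6 had a log2 fold change below 0, and the median over the 8 was -0.32. The 5 ephrin-B genes lay between -0.22 (efnb3b) and -0.01 (efnb2a, a marker of arteries), with intervals that reached from -0.58 to 0.39. The sign for efnb2a changed with upper-quartile scaling.

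Of 15 Eph receptor genes 0 were called by edgeR or DESeq2. At an unadjusted p below 0.05, 1 was higher and 3 were lower, against 11.6% and 12.5% of all tested genes. With the replicate block 1 was higher and 2 lower, against 8.96% and 8.86%. ephb2b, a receptor of ephrin-B ligands, was at 14.3, 13.0 and 13.8 CPM with IWR-1, against 19.3, 21.2 and 18.9 CPM with DMSO. The groups were clearly apart, and the log2 fold change was -0.53 ± 0.15 (edgeR adjusted p = 0.0550; 0.0234 with the replicate block). epha4l, related to the EphA4 receptor of repelled axons, had a log2 fold change of -0.61 ± 0.25 (edgeR adjusted p = 0.163; 0.0425 with the block; 0.0289 without DMSO replicate 2). An annotated gene with 1617 counts lies across epha4l on the opposite strand.

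epha6 was at 3.08, 1.89 and 5.59 CPM with IWR-1 and 1.997, 1.601 and 1.848 CPM with DMSO. IWR-1 replicate 3 was the highest and IWR-1 replicate 2 lay inside the DMSO range, and the log2 fold change was 0.95 ± 0.37 (edgeR adjusted p = 0.149; 0.0413 with the block). The related receptor genes epha4a and epha4b, neighbours on chromosome 2, differed by -0.02 ± 0.18 and 0.08 ± 0.17. ephb4a, a receptor gene of veins, differed by -0.07 ± 0.15 and epha3 by 0.15 ± 0.22, each with groups that overlapped. ephb6, the member with the fewest counts, had 11, 11 and 12 counts with IWR-1 and 22, 15 and 19 counts with DMSO, and a log2 fold change of -0.81 ± 0.33 (edgeR adjusted p = 0.165).

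By role, 5 of the 6 called genes were among the 52 ligand genes and 1 was among the 42 receptor genes. Of all tested genes, 3.59% were called lower and 3.88% higher. The difference between the roles was not tested. The median log2 fold change was -0.11 over ligands and 0.05 over receptors. Many of these genes are named as pairs a and b, called duplicates here by name alone. Their origin was not tested. Some pairs share a chromosome: sema3ga and sema3gb lie on chromosome 8, and epha4a and epha4b on chromosome 2. There were 25 such pairs, and none had both copies called by the fit without the replicate block: 4 had 1 copy called (sema3f, sema3g, ntn1 and efna5) and 21 had neither. With the replicate block both sema3f copies were called, 5 pairs had 1 copy called and 19 had neither. That fit called 8.96% of all tested genes higher and 8.86% lower, so more called copies are no trait of the pairs. In each of the 4 pairs with 1 copy called without the block, the other copy had the same sign, at -0.42, -0.37, -0.21 and -0.23. Of the 95 members 53 had a log2 fold change below 0, as had 9886 of 19562 tested genes. Whether the copies fell together was not tested.

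A ratio of the copies within a library is free of scaling. Log2 of sema3fa over sema3fb was -1.01, -1.10 and -0.93 with IWR-1 and -0.77, -0.24 and -0.68 with DMSO. For sema3ga over sema3gb it was 1.35, 1.29 and 1.31 with IWR-1, against 1.03, 0.70 and 0.71 with DMSO. In both pairs the IWR-1 libraries lay on one side of all DMSO libraries. The ratios of the groups were apart in 6 of the 25 pairs: ntn1, sema3f and sema3g, each with a called copy, and efna2, plxnb1 and sema4b, with neither copy called. Where a copy was called, the ratio describes that fall and adds no evidence to it. For ntn1 the gap was narrow, with -0.295 as the highest IWR-1 ratio and -0.254 as the lowest DMSO ratio. The share over other pairs of genes was not computed, so the count of 6 has no background. The efna5 ratios overlapped by a little, at 2.66, 2.39 and 2.52 with IWR-1 and 2.96, 2.97 and 2.64 with DMSO. With 3 libraries against 3, an exact permutation test of such a ratio cannot give a two-sided p below 0.1, and none was run.

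**Figure D4:**
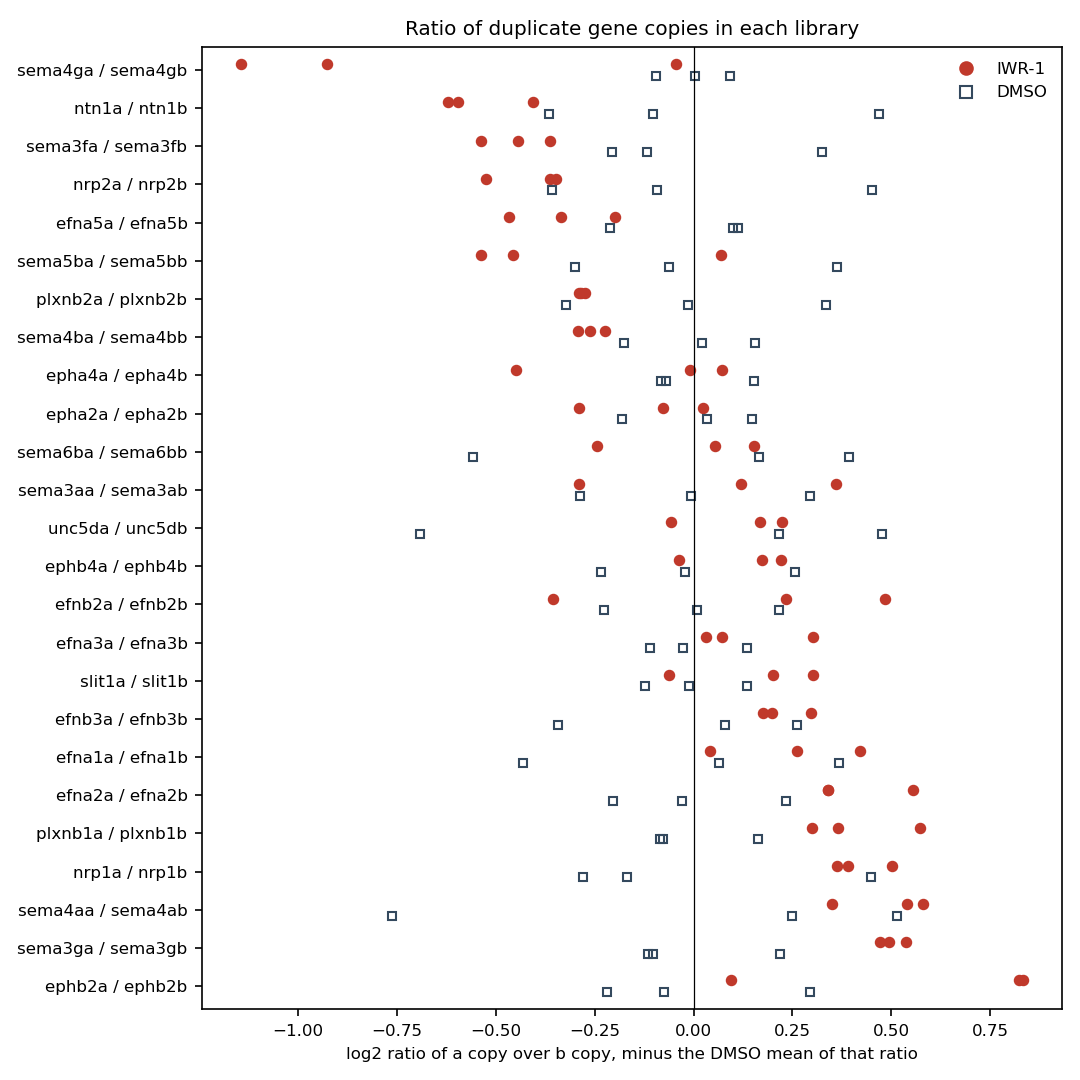
Log2 ratio of the a copy over the b copy in each library, minus the DMSO mean of that ratio, for the 25 duplicate pairs (filled circles, IWR-1; open squares, DMSO). For ntn1 and sema3f the IWR-1 libraries lie left of all DMSO libraries, for sema3g right of them, and the groups are also apart for efna2, plxnb1 and sema4b, where neither copy was called.

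In 3 lists of other genes of the pathway, 2 of 140 tested genes rose and 7 fell, 6.43% in all against 7.47% of all tested genes. With the replicate block 8 were called higher and 11 lower, 13.6% in all. That fit called 8.96% of all tested genes higher and 8.86% lower, so these lists were not called more often than genes in general. Among 68 intracellular effectors, mical1, an oxidase that takes actin filaments apart downstream of plexins, rose (log2 fold change 0.79 ± 0.15, edgeR adjusted p = 0.00966). dpysl4, of the collapsin response mediator family, and ablim1b, an actin-binding protein gene, fell by 0.62 and 0.54 on the log2 scale. mical1 was at 56.8, 70.1 and 76.5 CPM with IWR-1, against 39.3, 36.6 and 41.3 CPM with DMSO, groups that were far apart.

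Of 46 other ligands, receptors and co-receptors 4 fell: gpc1a, a glypican (log2 fold change -0.95 ± 0.19, edgeR adjusted p = 0.0141), rtn4a, of the reticulon family of Nogo (-0.60), plxdc2 (-0.53) and the chemokine receptor gene cxcr4a (-1.41). cxcr4a was low throughout, at 1.51, 1.57 and 1.27 CPM with IWR-1 and 3.12, 6.41 and 2.31 CPM with DMSO. In the list of 26 genes for axon adhesion, chl1a, a cell adhesion gene of the L1 family, fell by 0.49 on the log2 scale. That list also holds nexn and gap43, which are not adhesion genes, and gap43 is in the neuron list too. Of the 9 called genes in these lists, 3, 0 and 0 were called when IWR-1 replicate 1, 2 or 3 was left out, and 1, 7 and 8 when DMSO replicate 1, 2 or 3 was left out. RLE scaling kept 7 and upper-quartile scaling 5. Counting newly called genes too, those fits called 4, 0 and 0 of the 140 without an IWR-1 library, and 1, 10 and 11 without a DMSO library. Over all tested genes the share called lower also dropped, from 3.59% to 1.38% and 0.957% without IWR-1 replicate 2 or 3. The list medians were 0.02, -0.0008 and 0.09 against -0.006 over all tested genes.

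Markers of several cell types moved with IWR-1 in the same libraries. Of all tested genes 7.47% were called, and the replicate block called 8.96% higher and 8.86% lower. The share called was 26.7 to 60% for fibroblasts, pigment cells, epidermis, and oligodendrocytes and Schwann cells. It was 16.7% for endothelium, 13.6% for macrophages and neutrophils, 12.5% for notochord and cartilage and 10% for radial glia. With the block, 17.1% for neurons, 18.8% for notochord and cartilage and 20% for muscle lay near that background. Other lists were at 25 to 70%. In the fibroblast list 12 of 28 genes fell, and the summed level was 21040 to 25900 CPM with IWR-1 and 31090 to 32910 CPM with DMSO. In the pigment cell list 12 of 20 fell (620 to 671 CPM with IWR-1, 993 to 1049 CPM with DMSO), in the epidermis list 5 of 18 fell and 2 rose (4387 to 6036 CPM with IWR-1, 6679 to 8037 CPM with DMSO), and in the list of oligodendrocytes and Schwann cells 4 of 15 rose (473 to 597 CPM with IWR-1, 322 to 361 CPM with DMSO). Much of the pigment sum was mycbp2, which was not called (319 to 329 CPM with IWR-1, 286 to 334 CPM with DMSO). csf1ra, also not called, is in the macrophage list too. The sum thus understates the fall of the called pigment genes, and the median log2 fold change over that list was -1.44. The endothelial list had 2 higher and 2 lower of 24 (228 to 275 CPM with IWR-1, 248 to 301 CPM with DMSO), where DESeq2 called 0 higher and 2 lower and the replicate block gave 3 and 3. Of 35 neuron genes 0 were called by edgeR or DESeq2, with 5 higher and 2 lower at an unadjusted p below 0.05 and 5 called higher and 1 lower with the replicate block, and the summed level was 885 to 1003 CPM with IWR-1 and 882 to 995 CPM with DMSO. Radial glia had 2 of 20 lower (1911 to 2048 CPM with IWR-1, 1726 to 2232 CPM with DMSO), and macrophages and neutrophils 3 of 22 higher (988.5 to 1436 CPM with IWR-1, 1079 to 1384 CPM with DMSO). Much of that last sum was apoeb, at 480 to 676 CPM with IWR-1 and 604 to 797 CPM with DMSO. The median log2 fold change over the macrophage and neutrophil list was 0.34, and its 3 called genes were mpeg1.2, lcp1 and ptprc. At an unadjusted p below 0.05, 8 genes of that list were higher and 1 lower, against 11.6% and 12.5% of all tested genes. Not all of the list rose: mpx, mmp9 and mmp13a had log2 fold changes of -0.37, -0.48 and -0.78, and none of these was called. Notochord and cartilage had 2 of 16 lower. Of 20 muscle genes 0 were called by edgeR or DESeq2, with 3 higher and 1 lower at an unadjusted p below 0.05 and also 3 called higher and 1 lower with the replicate block. The block also gave 7 higher in the list of oligodendrocytes and Schwann cells, 7 higher in that of macrophages and neutrophils, and 1 higher and 4 lower in that of radial glia. Every tested marker of these lists had counts in every library. The part of these cell types in the falls of unc5b, ntn1a, the 3 semaphorin genes and efna5a was not tested.

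In the authors' deposited table, 6 members had an adjusted p below 0.05 and a negative log2 fold change, and 0 a positive one. For unc5b the authors' deposited table gives a log2 fold change of -1.41 with an adjusted p of 1.39e-07. These values are shown as deposited. They rest on the same counts and are no independent evidence. For unc5b, sema3fa and sema3gb the deposited adjusted p equals the lowest among the alternatives run here. The reason for the smaller deposited log2 fold change of unc5b (-1.41, against -1.63 here) was not tested.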

How the data were processed

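Per the labels' protocols, an FFPE kit was used for RNA and a directional kit with ribosomal RNA depletion for libraries. The deposited raw counts per Ensembl gene were made by the authors with cutadapt, STAR and featureCounts on GRCz11, per the submitters' processing notes; tool versions and strand setting: not given in the sources used here. None of the 6 called genes is overlapped by another annotated gene. The deposited comparison holds the authors' log2 fold changes and adjusted p-values, per the file headers. Columns were matched to samples through the deposited sample sheet, and names, coordinates and strands came from the deposited annotation.

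Members and gene lists were chosen with earlier results of these data known. The test across all genes was that of edgeR 4.0.16 under R 4.3.3 (TMM, filterByExpr, robust quasi-likelihood fit, 3 against 3 libraries), which left 19562 of 22350 genes, all 95 members among them; the scripts were tested on simulated counts. Standard errors are the log2 fold change over the square root of F. Same-numbered libraries deviated together (correlations of 0.293, 0.341 and 0.159, all over 0.1), so the replicate number was used as a block in an alternative. This pairing rests on the correlations alone, since no label gives the numbers a shared source. The block was thus chosen from these same data with 3 libraries per group, and its adjusted p-values may be too small. Calls made only with the block are weaker evidence than those made without it. Replicates differed by more than sampling noise (lowest chi-square over its degrees of freedom 8.18), and each is a separate pool of larvae. Named members are the called ones, a fixed panel, those of each family with the most counts or the smallest p, and the lowest member; other genes given with values (sema3fb, sema3c, sema6a, efna2b, epha4b and ends of ranges among them) were chosen after their values were seen. Alternatives were other scalings (RLE, upper quartile), other filters, the replicate block, DESeq2 1.42.0 and leaving out each library. One called gene of the effector list is not reported here by name.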

Additional observations from a re-analysis of the deposited data

How the results depend on the processing

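The number of genes called over the whole table was 1462, and 3486 with the replicate block; without any 1 library it ran from 447 to 2117. Members called lower numbered 6, 12 with the replicate block, and 2 to 9 without any 1 library: 2 when IWR-1 replicate 2 or 3 was left out, and 4 when replicate 1 of either group was. Those without DMSO replicate 2 were 9, which included 5 of the 6. Members called higher numbered 0, 3 with the replicate block and 0 to 1 without any 1 library. The block kept all 6 calls. The median over members was -0.02 and moved by less than 0.101 in every alternative. That bound is the SD, over the IWR-1 libraries only, of the median member log2 difference from the DMSO mean. Of 528 values of 44 named members under alternatives, 471 kept direction and side of the threshold, 15 lost the call, 11 gained it and 31 changed sign; none of the 13 members that changed sign was called.

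With upper-quartile scaling the log2 fold changes of sema3ab, robo3, efnb2a and epha4a were 0.0183, 0.0254, 0.0177 and 0.0108; that of robo3 was 0.0032 with RLE scaling, 0.0082 with the replicate block and 0.0003 with DESeq2. Leaving out 1 library at a time gave log2 fold changes of -0.2531 to 0.1774 for sema3ab, -0.285 to 0.0857 for sema4ab, -0.026 to 0.2129 for plxna3, -0.0893 to 0.2286 for slit1a, -0.3085 to 0.1226 for slit1b, -0.0577 to 0.2011 for robo1 and -0.1391 to 0.1624 for robo3. It gave -0.03 to 0.473 for dcc, -0.0633 to 0.0569 for efnb2a, -0.0603 to 0.4023 for epha3, -0.242 to 0.1137 for epha4a, -0.0551 to 0.1891 for ephb3a and -0.1828 to 0.0263 for ephb4a. The cause was not tested. Depth limits the lowest members: ephb6 had 90 counts over all libraries.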
